A study of Mus musculus with 12 samples.

Results

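The 8 genes described here are the serpins Serpina3f, Serpina3g, Serpina3h, Serpina3i, Serpinb1a, Serpinb6a, Serpinb6b and Serpinb9, out of 23700 loci measured by RNA sequencing in mouse CD4+ T cells. They were chosen by name as serpins thought to be induced without Bach2, so their difference between Bach2-deficient and wild type cells chose them and is given as a description with no test. In 7 of the 8 genes every Bach2-deficient library was above every wild type one, as in 43.4% of all tested loci. Since the choice used this difference, the count lends the label no support. Serpinb6a overlapped between the genotypes, so its values do not bear the label out. The files hold 55 other serpin loci, which serve as comparison.

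All cells came from spleen and lymph nodes of C57BL/6J mice and were sorted as naive CD4+CD44-CD25-CD62L+ T cells. The naive library was made from wild type cells straight after sorting. Wild type cells kept for 3 days on plates coated with anti-CD3 and anti-CD28, 10 μg/ml of either one, gave a Th1, a Th2 and a Th17 library. The added cytokine was IL-12 for Th1, IL-4 for Th2 and IL-6 for Th17, each at 20 ng/ml, and Th17 cultures also had TGF-β1 at 2 ng/ml. Blocking antibodies, at 10 μg/ml, were directed to IL-4 in Th1, to IFN-γ in Th2 and to both in Th17 cultures. Induced regulatory (iTreg) cultures received 100 IU/ml IL-2 and 5 ng/ml TGF-β1 for the same 3 days on the same coating and gave 3 wild type (WT) and 3 Bach2KO libraries. The labels give neither the kind of Bach2 allele nor the animals' age, and do not tie the replicate numbers to mice or wells, so p-values measure only the spread between these libraries. Bach2 chromatin immunoprecipitation (ChIP) was done in 1 WT iTreg sample with an antibody made in house, beside 1 input sample.

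Serpins are a family of protease inhibitors that act once: the protease cuts an exposed loop of the serpin, and the serpin then folds around and traps it. Clade A members are mostly secreted, although Serpina3g (also called Spi2A) acts inside lymphocytes against lysosomal cathepsins. Clade B members stay in the cytosol and protect cells from their own granule proteases, Serpinb9 against granzyme B and Serpinb1a against neutrophil elastase, cathepsin G and proteinase 3. Bach2 is a transcriptional repressor that pairs with small Maf proteins and binds DNA sites related to the AP-1 site TGAGTCA.

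Levels are in FPKM, the fragments per kilobase of transcript scaled to the mapped total of the library, which allows levels of different genes to be compared, and differences are on log2(FPKM + 0.5), which understates changes of genes near 0. Bach2 itself stood at 17.6 ± 0.351 FPKM in WT and 3.81 ± 0.378 in Bach2KO iTreg cells (SD, n = 3 each). Foxp3, which defines regulatory T cells, stood at 72.5 ± 7.6 and 11.1 ± 7.56 FPKM. It was thus reduced in Bach2KO, though still above the naive, Th1, Th2 and Th17 libraries (0.226 to 1.35 FPKM). Of the other regulatory T cell markers listed, Il2ra was called higher in Bach2KO (268 to 380 against 68.0 to 95.5 FPKM) and Ctla4 was not called. The iTreg name of the Bach2KO libraries therefore follows the culture. The files give no read totals. Reads implied by the deposited confidence bounds, over loci with a single start, came to between 12.3 and 24 (in units of 1e+06 reads) per library. The T cell markers Cd3e, Cd3g, Cd3d, Cd4, Cd5 and Lck summed to between 1620 and 1660 FPKM in WT and between 1250 and 1390 FPKM in Bach2KO. Of these 6 genes, 4 were called lower, as were 33.6% of all tested loci. B cell markers, 7 genes, summed to 232, 32.9 and 122 FPKM in WT replicates 1, 2 and 3 and to 161, 147 and 132 FPKM in Bach2KO. Of these sums Cd74 made up 122, 16.3 and 65.1 FPKM in WT and 125, 124 and 97.7 FPKM in Bach2KO, and Ly6d and Cd79a were called lower in Bach2KO. Myeloid and neutrophil markers, 10 genes, summed to between 6.91 and 8.05 FPKM in WT and to between 0.287 and 0.708 FPKM in Bach2KO. Most of the WT sum came from Itgam (3.03 to 4.2 FPKM) and Fcgr3 (3.33 to 3.86 FPKM). Both were called lower in Bach2KO, at 0.117 to 0.189 and 0.161 to 0.285 FPKM. Lyz1, S100a8, S100a9 and Csf3r were at 0 in all 6 iTreg libraries. The part of these markers in the results was not tested. In bulk RNA, fewer cells of a type and less RNA per cell cannot be told apart.

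Serpina3f, Serpina3g, Serpina3h, Serpina3i and Serpinb9 had their highest level in Bach2KO iTreg cells, with the Th1 library next. The Bach2KO means ranged from 1.57 FPKM in Serpina3i to 60.7 FPKM in Serpina3g. Serpinb6b was highest in Th1 and Th2, and both Serpinb1a and Serpinb6a in the Th17 library. The libraries of the genotypes did not overlap, with Bach2KO higher, in 7 of the 8 genes. Over all 11473 tested loci this held for 43.4%, and nothing is read from the comparison since the genes were chosen on it. All 8 members passed the filter of a mean of 0.5 FPKM, Serpina3f, Serpina3h and Serpina3i only through Bach2KO.

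**Figure D1:**
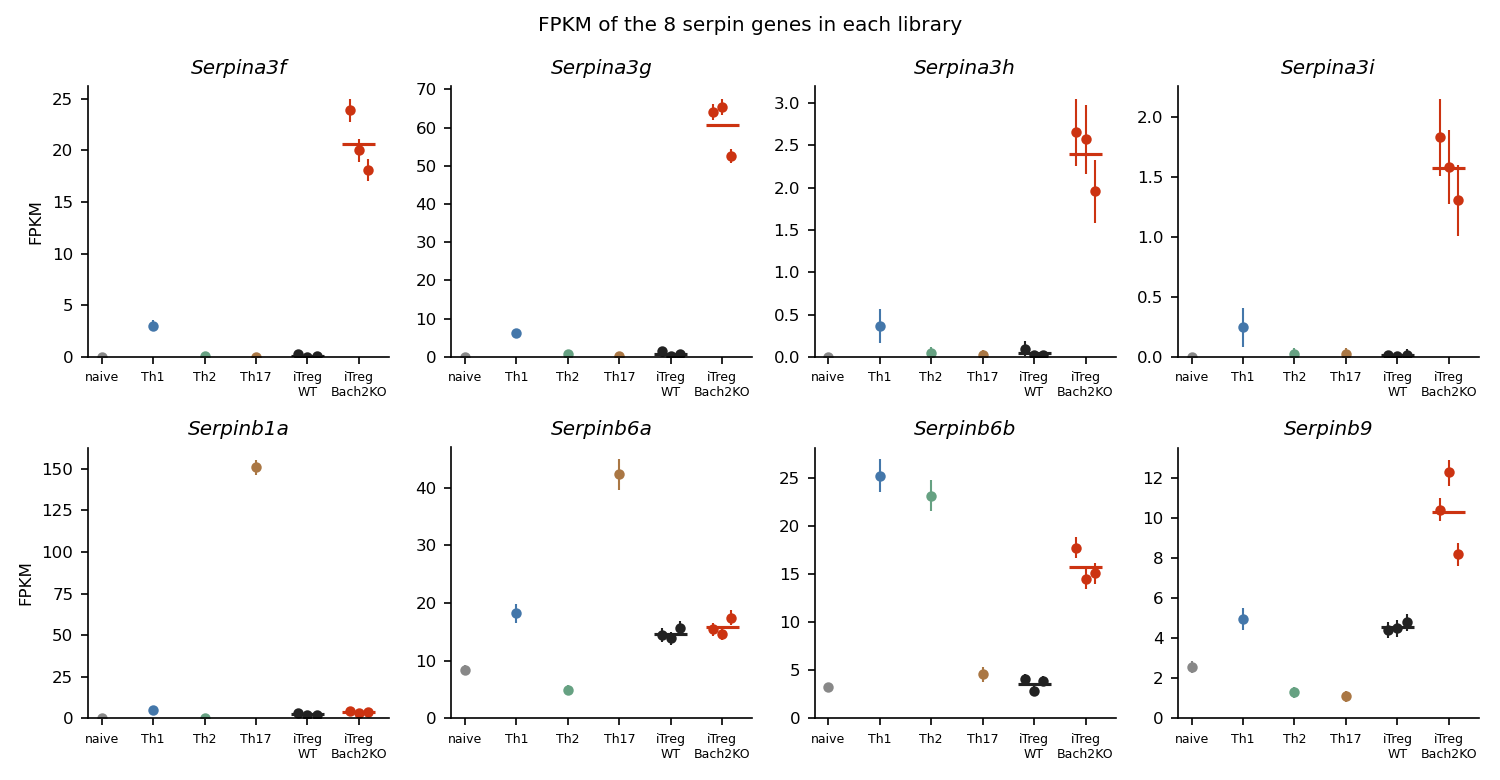
FPKM of each serpin gene (linear axis from 0, a separate scale per gene) in the naive, Th1, Th2, Th17, WT iTreg and Bach2KO iTreg libraries. Points are libraries, vertical lines the deposited confidence bounds (counting error only) and horizontal lines the means of 3 libraries; Serpinb6a is the 1 gene whose WT and Bach2KO points overlap.

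Serpina3g had the highest level of the 8 genes in Bach2KO iTreg cells. Its locus in the files spans chromosome 12, 105452754 to 105480144 (mm9, plus strand). It stood at 1.49, 0.169 and 0.828 FPKM in the WT replicates and at 64.1, 65.4 and 52.5 FPKM in the Bach2KO replicates. Every Bach2KO library was far above every WT library, and the lowest WT library was replicate 2. The means were 0.828 ± 0.659 and 60.7 ± 7.07 FPKM (SD, n = 3 each), a difference of 5.66 on the log2 scale. The Bach2KO values rest on between 2898 and 4225 implied reads and the WT values on between 9 and 83. The other libraries were lower: 6.26 FPKM in Th1 (deposited bounds 5.45 to 7.08), 0.85 in Th2, 0.108 in Th17 and 0.0648 in naive cells. The Th2 level lay inside the WT iTreg range, and the Th17 and naive levels were below it.

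Serpina3f, a close relative (chromosome 12, 105452754 to 105459339, plus strand), was at 0.306, 0.00455 and 0.0663 FPKM in WT and at 23.9, 20.0 and 18.1 FPKM in Bach2KO replicates 1 to 3. The lowest Bach2KO library was above the highest WT library, and the difference was 5.10 on the log2 scale. The Th1 library held 3.00 FPKM (bounds 2.47 to 3.53), and the naive, Th2 and Th17 libraries stood between 0.00816 and 0.0529 FPKM, each with a lower bound at 0. Values of Serpina3f and Serpina3g cannot be read apart with certainty. The whole Serpina3f locus of 6586 bp lies inside the locus given for Serpina3g, and both loci carry the same start group in the files. The GENCODE annotation of the same build instead starts Serpina3g downstream of Serpina3f. The ratio of Serpina3f to Serpina3g was 0.373, 0.306 and 0.345 in Bach2KO, 0.206, 0.027 and 0.08 in WT, 0.479 in Th1 and 0.0622 in Th2.

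Serpina3h and Serpina3i followed at lower levels. Serpina3h (chromosome 12, 105486106 to 105492615), which GENCODE lists with a transcribed pseudogene model, was at 0.0966, 0.0205 and 0.0196 FPKM in WT and at 2.66, 2.57 and 1.96 FPKM in Bach2KO. Serpina3i (105501332 to 105507575) was at 0.0119, 0.00945 and 0.0182 FPKM in WT and at 1.83, 1.58 and 1.31 FPKM in Bach2KO. In both genes the groups stood apart, with log2 differences of 2.40 and 2.01. The WT values correspond to at most 5 implied reads for Serpina3h and at most 1 for Serpina3i, against 110 to 179 and 79 to 132 in Bach2KO, so no fold is given. Both genes were next highest in Th1, at 0.366 FPKM (14 implied reads) and 0.246 FPKM (9 implied reads), and were listed at 0 in naive cells.

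The 4 Serpina3 genes lie side by side and share sequence, which touches the measurement because only uniquely aligned 50-bp reads were used. Of the 50-base words in annotated exons, 14% in Serpina3f, 14.9% in Serpina3g, 22.1% in Serpina3h and 19.3% in Serpina3i had a second exact copy in the genome. Reads from such words would not be counted as unique. Of the 292 such words of Serpina3g, 181 also occur in Serpina3h, and of the 275 of Serpina3f, 137 occur in Serpina3g. Among the clade B members the share was 4.18% in Serpinb1a, 3.38% in Serpinb6b, 0.36% in Serpinb6a and 0 of 3102 words in Serpinb9. The ratio of Serpina3h to Serpina3g was 0.0414, 0.0393 and 0.0372 in Bach2KO and 0.0584 in Th1, and that of Serpina3i to Serpina3g was 0.0286, 0.0242 and 0.0249 in Bach2KO and 0.0393 in Th1. The part of reads misassigned from Serpina3g in these low values was not tested.

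Promoter sequences are shown for the Serpina3 genes because these 4 members moved together, and letters they share are of use beside the values. RefSeq promoters (GRCm38.p6, 250 bases before to 50 after the start) matched 6 of the 8 genes; Serpina3h and Serpinb1a had no entry. The pattern TTCNNNGAA reads the same on both strands and is the core of sites bound by STAT factors. It occurred once each in the promoters of Serpina3f, Serpina3g and Serpina3i. In 1 of the 2 promoters of Serpinb6a, whose levels overlapped between the genotypes, it occurred 2 times. The pattern was in 8.3% of all 32851 promoters. Each window below is on the plus strand, with the pattern in capitals, and the name gives its position.
Serpina3f chr12:104214403-104214451: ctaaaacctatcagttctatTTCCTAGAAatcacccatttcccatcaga
Serpina3g chr12:104236094-104236142: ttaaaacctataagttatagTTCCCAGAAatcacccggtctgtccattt
Serpina3i chr12:104263000-104263048: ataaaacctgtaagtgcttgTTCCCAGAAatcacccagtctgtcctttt

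The centre of the pattern lay 29 bases before the start in Serpina3g, 98 bases in Serpina3i and 117 or 206 bases before the 2 starts of Serpina3f. The Serpina3g window matched Serpina3i at 42 of 49 bases and Serpina3f at 32 of 49. The promoters of Serpina3a, Serpina3b, Serpina3c, Serpina3j and Serpina3n in the same cluster held no TTCNNNGAA, although stretches of Serpina3b, Serpina3c and Serpina3n matched the Serpina3g window at 35, 37 and 35 of 49 bases. Of these genes without the pattern, Serpina3n was higher in Bach2KO too, at 0.0183 ± 0.0189 FPKM in WT and 1.06 ± 0.18 in Bach2KO (SD, n = 3 each). The search for this pattern was chosen with the values known. TGAGTCA or its complement TGACTCA was in none of the 6 members' promoters and in 5.2% of all promoters. A match is a description of letters and not a site shown to be bound.

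Serpinb6b, a relative of the cathepsin G inhibitor Serpinb6a (chromosome 13, 33057382 to 33070906, plus strand), was at 4.11, 2.86 and 3.87 FPKM in WT and at 17.8, 14.5 and 15.1 FPKM in Bach2KO. All Bach2KO libraries were above all WT libraries, with means of 3.62 ± 0.662 and 15.8 ± 1.77 FPKM (SD, n = 3 each) and a log2 difference of 1.99. Its highest levels were in the Th1 library (25.3 FPKM, bounds 23.6 to 27.0) and the Th2 library (23.2 FPKM, bounds 21.6 to 24.8), whose bounds overlap. The naive library (3.23 FPKM) lay inside the WT iTreg range, and the Th17 library (4.57 FPKM, bounds 3.81 to 5.32) was above it, with bounds that reach it. The Bach2KO level of Serpinb6b thus stood between WT iTreg cells and the Th1 and Th2 libraries.

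Serpinb9, the granzyme B inhibitor (chromosome 13, 33096410 to 33109824, plus strand), was at 4.40, 4.48 and 4.78 FPKM in WT and at 10.4, 12.3 and 8.17 FPKM in Bach2KO. The WT libraries were close together and every Bach2KO library was higher, with a log2 difference of 1.08. The Th1 library (4.95 FPKM, bounds 4.40 to 5.49) was within its bounds of the WT iTreg libraries. Naive cells held 2.57 FPKM, Th2 1.31 FPKM (bounds 1.03 to 1.58) and Th17 1.09 FPKM (bounds 0.829 to 1.36), and the bounds of Th2 and Th17 overlap.

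Serpinb1a (chromosome 13, 32933961 to 32943054, minus strand) was at 3.12, 1.75 and 2.25 FPKM in WT and at 4.39, 3.38 and 3.95 FPKM in Bach2KO. The groups did not overlap, but the highest WT and the lowest Bach2KO library were near each other, and the log2 difference was 0.64. The level in the Th17 library was far higher, at 151 FPKM (bounds 146 to 155, 5025 implied reads), 31.6 times the next level, 4.77 FPKM in Th1. The naive and Th2 libraries held 0.051 and 0.217 FPKM. Serpinb1a made up most of the summed serpin level of the Th17 library.

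Serpinb6a, an inhibitor of cathepsin G (chromosome 13, 34009787 to 34094663, minus strand), was at 14.4, 13.9 and 15.6 FPKM in WT and at 15.4, 14.7 and 17.4 FPKM in Bach2KO. These ranges overlap, and the log2 difference of 0.11 turned to −0.028 under quantile normalization and to −0.16 with equal library sums. Its levels differed more between cultures than between genotypes, with 42.3 FPKM in Th17, 18.2 in Th1, 8.36 in naive cells and 4.92 in Th2. The Serpinb6a locus overlaps those of Nqo2 and 1110046J04Rik, and the files do not state that strand was used in counting.

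**Figure D2:**
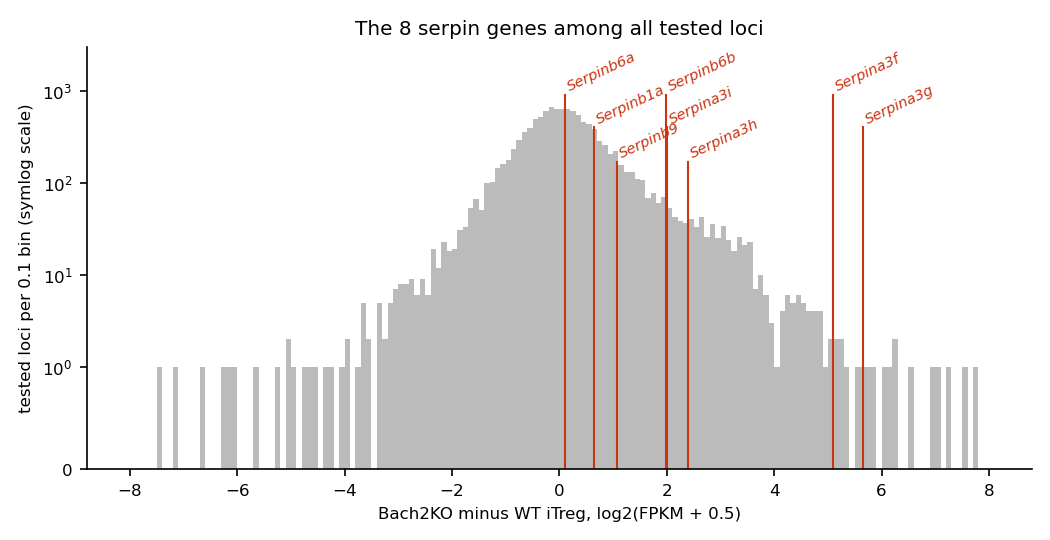
Difference between Bach2KO and WT iTreg cells on log2(FPKM + 0.5) for the 11473 tested loci (grey bars, count per 0.1 bin, on a scale that is linear up to 1 and logarithmic above). Red lines mark the 8 serpin genes, which were chosen on this difference, from Serpinb6a at 0.11 to Serpina3g at 5.66.

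Against all tested loci, whose median difference was 0.071, 4 members (Serpina3f, Serpina3g, Serpina3h and Serpina3i) lay above a log2 difference of 2, as did 5.32% of all loci. Serpinb6b was just under that value at 1.99 and Serpina3i just over it at 2.01. At a log2 difference of at least 1, which 15.3% of all loci reached, stood 6 members, these with Serpinb6b and Serpinb9. The members were chosen on this difference, so nothing is read from these counts against the shares of all loci. Across the WT libraries, Serpina3f, Serpina3g, Serpinb1a and Serpinb6b were each highest in replicate 1 and lowest in replicate 2. Serpina3h, Serpina3i, Serpinb6a and Serpinb9 had other orders, and Serpina3f and Serpina3g cannot be read apart with certainty. The B cell marker sum was also highest in replicate 1 and lowest in replicate 2 (232, 122 and 32.9 FPKM in replicates 1, 3 and 2). Its part in the WT values of the members was not tested. Without WT replicate 2 the log2 difference of Serpina3g was 5.23.

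**Figure D3:**
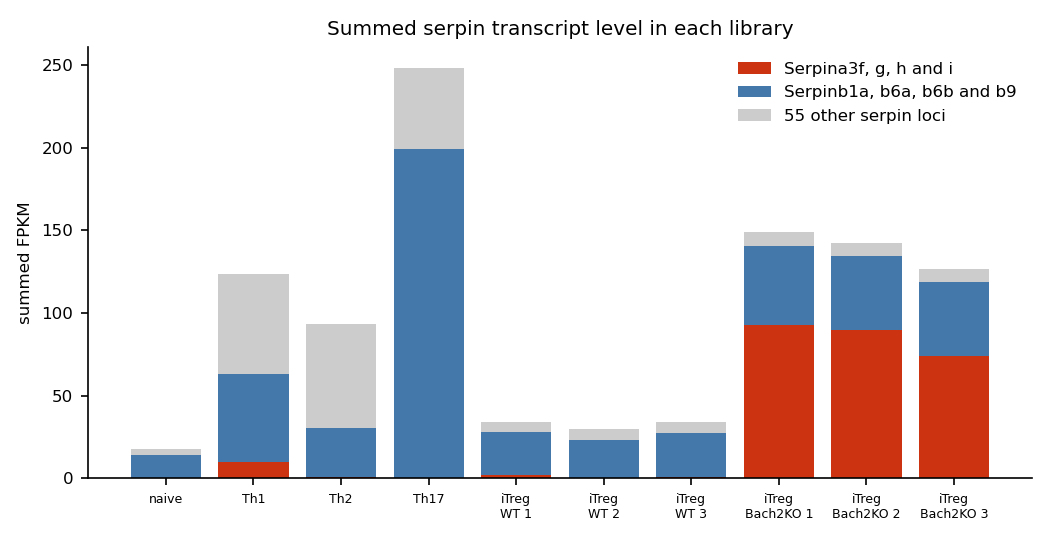
Summed FPKM (linear axis from 0) of the 4 Serpina3 members, the 4 Serpinb members and the 55 other serpin loci in each of the 10 libraries. The red part, the Serpina3 members, is between 73.9 and 92.5 FPKM in the Bach2KO libraries and at most 9.88 FPKM elsewhere.

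The summed levels are a description. The members were chosen on the difference between the genotypes, so a shift of their sums was set by the choice. The 4 Serpina3 members together held 1.90, 0.203 and 0.932 FPKM in WT and 92.5, 89.5 and 73.9 FPKM in Bach2KO iTreg cells. The 4 Serpinb members together held between 23.0 and 26.5 FPKM in WT and between 44.6 and 48.1 FPKM in Bach2KO. The 55 other serpin loci, not chosen on it, held between 6.19 and 6.78 FPKM in WT and between 7.93 and 8.52 FPKM in Bach2KO. Serpinb6a was the highest serpin of each WT iTreg library and Serpina3g of each Bach2KO library. In Th1 and Th2 the highest serpin was Serpinf1, which encodes the secreted factor PEDF, at 34.9 and 33.6 FPKM.

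Bach2 binding was read from 22494 peaks called by the authors in the 1 ChIP library. None of the 4 Serpina3 genes had a peak within 50 kb of its locus, and the nearest lay 149598 bp upstream of Serpina3f. All 4 Serpinb genes had at least 2 peaks within 50 kb, 8 distinct peaks in all. Over all tested loci 84.5% had a peak within 50 kb, with a median of 2, so a peak in reach of a Serpinb gene was the usual case. The list was made at a p-value cutoff of 1e-05.

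**Figure D4:**
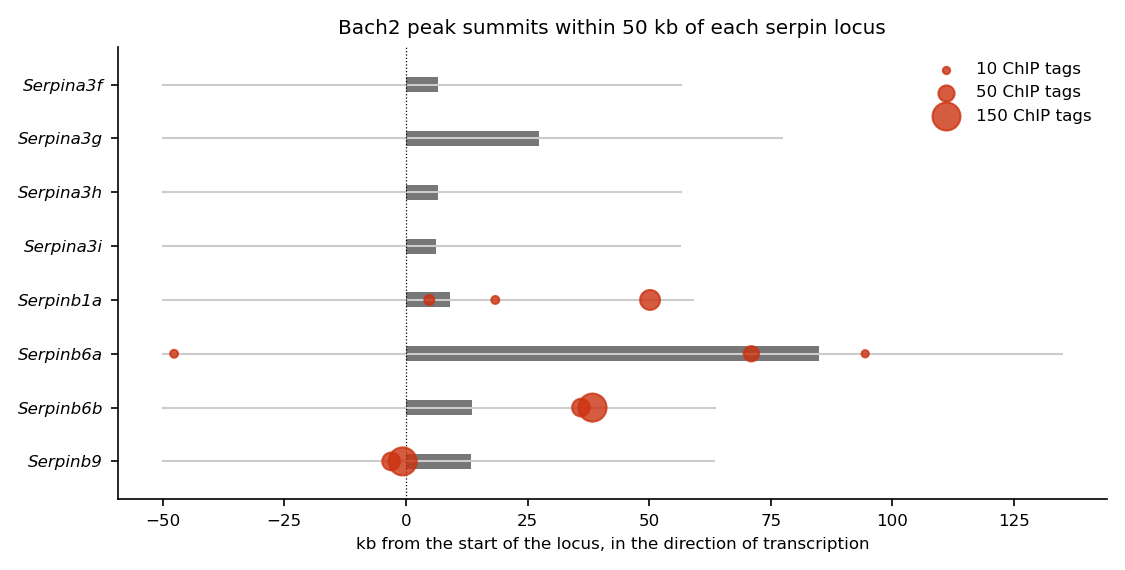
Bach2 peak summits (red, area scaled to ChIP tags in the peak) within 50 kb of each serpin locus (grey bars), by distance in kb from the start of the locus in the direction of transcription. The 4 Serpina3 genes have none, and the peak with most tags, 151, lies 663 bp before the start of Serpinb9.

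At Serpinb9 the peak with most tags of the 8 (chromosome 13, 33094974 to 33096979, 151 tags, deposited fold enrichment 16.75) had its summit 663 bp upstream of the start in the files and 628 bp downstream of an earlier GENCODE start, in an intron. A further peak (33093033 to 33093801, 60 tags, fold 29.4) lay 2609 bp from the locus. Serpinb6b shares these 2 peaks, which begin 22127 and 24068 bp beyond its end, and has no other within 50 kb. Serpinb1a had a peak of 19 tags (32938111 to 32938602, fold 22.14) in an intron, 4815 bp downstream of its start. It also had a peak of 76 tags (fold 57.28) 40834 bp away. That peak had the highest deposited score of the 8, 637.4 against 538.3 for the Serpinb9 peak of 151 tags. Serpinb6a had an intronic peak of 45 tags (34023308 to 34023881, fold 13.08), 4065 bp downstream of the nearest GENCODE start.

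Sequence around these peaks is shown because some of them held TGAGTCA, the core letters of the site Bach2 and AP-1 share. Within 150 bp of the summit, TGAGTCA or TGACTCA was found in 4 of the 8 peaks and in 40.9% of all peaks. The windows below (mm9, 5′ to 3′ on the strand that reads TGAGTCA, which is in capitals) come from the peak in each gene's intron.
Serpinb9 chr13:33095756-33095842, plus strand: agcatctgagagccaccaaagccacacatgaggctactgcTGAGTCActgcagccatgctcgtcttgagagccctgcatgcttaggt
Serpinb1a chr13:32938200-32938286, minus strand: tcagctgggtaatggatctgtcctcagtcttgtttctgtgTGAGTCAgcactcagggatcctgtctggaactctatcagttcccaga
Serpinb6a chr13:34023635-34023721, minus strand: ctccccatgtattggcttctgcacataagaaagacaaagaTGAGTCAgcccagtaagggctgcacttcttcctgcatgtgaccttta

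At Serpinb9 the letters TGC stand directly before the capitals, as in the longer site of Maf partners, a form found in 6.96% of all peaks, and the match lies 52 bp from the summit. At Serpinb1a the window holds the nearer of 2 matches, which lies 4 bp from the summit and is followed by GCA, a form found in 2.81% of all peaks. At Serpinb6a the match lies 26 bp from the summit. The peak 9265 bp beyond the end of Serpinb6a held the remaining match, and the upstream peak of Serpinb9, at 33093033, held none. These matches describe letters, and no match says only that they are missing from the window.

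How the rest of the family behaved was asked with the 55 other serpin loci, of which 4 reached the mean of 0.5 FPKM needed for testing; 32 were at 0 in all 6 iTreg libraries. Of the 4 tested, 3 rose and 1 fell in Bach2KO by limma with Benjamini-Hochberg adjustment over all loci. Of all tested loci, 41.0% rose and 33.6% fell, 74.7% in either direction. The difference of Serpina3n and Serpinc1 also decided that they were tested, so the count supports nothing further. Serpina3n, a neighbour of the members that inhibits granzyme B, rose from 0.0183 ± 0.0189 to 1.06 ± 0.18 FPKM (SD, n = 3 each; log2 1.59, SE 0.13, limma adjusted p = 8.1e-05), and it passed the filter only through Bach2KO. Serpine2, which encodes a protease nexin, went up from 0.552 ± 0.162 to 2.12 ± 0.132 FPKM (SD, n = 3 each; limma with adjusted p = 0.00022) and Serpinc1, which encodes antithrombin, from 0.347 ± 0.151 to 1.15 ± 0.117 FPKM (limma adjusted p = 0.0015), and Serpinc1 too passed the filter only through Bach2KO. Serpini1, which encodes neuroserpin, fell from 4.36 ± 0.238 to 2.18 ± 0.167 FPKM (log2 −0.86, limma adjusted p = 0.00012).

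Granule genes include the proteases that several serpins inhibit. Of 14 such genes 5 were tested, of which 4 rose and 1 fell, beside 41.0% and 33.6% of all tested loci. Gzma, Gzmb and Gzmc passed the filter only through Bach2KO and Prf1 only through WT, so their difference also decided that they were tested, and the count supports nothing further. Granzyme B, the target of Serpinb9, stood at 21.5 to 36.7 FPKM in Bach2KO and at most 0.0783 FPKM in WT (Gzmb, limma adjusted p = 4.3e-06), and Serpinb9 was higher in the same 3 libraries. NK and CD8 T cell markers summed to between 8.24 and 10.0 FPKM in WT and between 12.5 and 14.2 FPKM in Bach2KO, with Cd8a and Cd8b1 higher, Klrd1 lower and Ncr1 at 0 in Bach2KO, and their part in the granule genes was not tested. Gzmc rose by 3.39 and Gzma by 2.65 (limma adjusted p = 2.8e-05 and 0.0076), the latter between 0.726 and 5.75 FPKM in Bach2KO, while the pore-forming perforin gene Prf1 fell by 1.81. Srgn, the serglycin core protein that stores granzymes, rose by 1.48. In the Th1 library Gzmb was at 251 FPKM, with Serpinb9 at 4.95 FPKM and Serpinb6b at 25.3 FPKM. The serine proteases Elane, Prtn3 and Ctsg, targets of Serpinb1a, were at 0 in all 6 iTreg libraries, and are named here after their values were seen.

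Of 10 cysteine cathepsins, 9 were tested, of which 2 rose and 4 fell, with a median log2 difference of −0.47. Over all tested loci 41.0% rose and 33.6% fell, so calls in both directions were common, and the counts here are a description. Ctss, the cathepsin S gene, fell from 262 ± 12.4 to 118 ± 10.7 FPKM, Ctsw from 364 ± 16.0 to 195 ± 16.4 and Ctsl from 7.41 ± 0.0698 to 2.31 ± 0.861 (SD, n = 3 each; limma adjusted p = 3.6e-05, 8e-05 and 0.0012). Ctso fell by 0.77 on the log2 scale. Ctsz rose by 0.79 and Ctsb by 0.40, and the call of Ctsb was lost under quantile normalization and with equal library sums (limma adjusted p = 0.057 and 0.19). All 3 tested cystatin genes, inhibitors of these cathepsins, rose: Cst3 from 39.4 ± 2.59 to 69.9 ± 1.34 FPKM (limma adjusted p = 4.3e-05), Cst7 by 0.72 and Cstb by 0.32. The call of Cstb was lost under the same rescalings (limma adjusted p = 0.21 and 0.41).

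**Figure D5:**
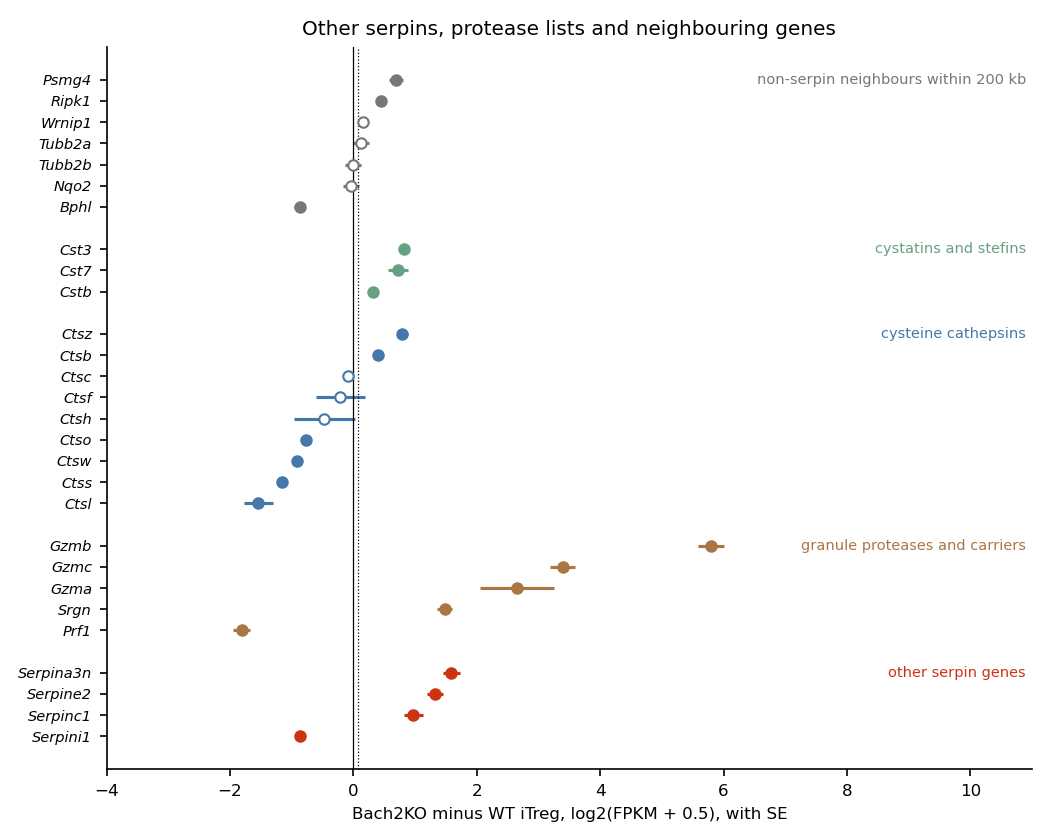
Difference between Bach2KO and WT iTreg cells on log2(FPKM + 0.5), with its SE, for tested members of the other serpins, granule genes, cathepsins, cystatins and genes beside the members. Filled points passed limma at an adjusted p of 0.05, open points did not, and the dotted line is the median of all tested loci, 0.071.

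Genes beside the members are given as a description. No locus other than serpins lay within 200 kb of the Serpina3 members. Of 11 such loci beside the Serpinb members, 7 were tested: 2 rose, 1 fell and 4 did not pass, and their median log2 difference was 0.13. Over all tested loci 41.0% rose and 33.6% fell. Psmg4, a proteasome assembly gene, rose from 32.9 ± 1.53 to 53.8 ± 8.14 FPKM and Ripk1, a kinase of cell death signalling, from 12.9 ± 0.699 to 17.8 ± 0.319 FPKM (limma adjusted p = 0.0015 and 0.00038). Bphl fell from 14.4 ± 0.798 to 7.7 ± 0.851 FPKM (SD, n = 3 each; limma adjusted p = 0.00021).

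The loci most like 3 of the members across the 6 conditions were found by Pearson correlation of log2(FPKM + 0.5) among 8206 loci with a mean of at least 5 FPKM, as a description. The points are 4 single libraries and the means of the 2 iTreg groups, which differ in depth. The Bach2KO mean is among the values on which the members were chosen. A high r concerns the shape over these 6 points and not the size of a change. For Serpina3g the loci were Kcnab2 (r = 0.978), Kptn (r = 0.977) and Irgm2, an interferon-inducible GTPase gene (r = 0.975). Kcnab2 ran only from 52.6 to 81.5 FPKM and Kptn from 6.0 to 8.93 FPKM, against 0.0648 to 60.7 FPKM for Serpina3g. Irgm2 stood at 48.6 FPKM in Bach2KO iTreg cells, 26.5 in Th1 and 13.4 in WT iTreg cells. For Serpinb6b they were Cs, the citrate synthase gene, D16Ertd472e and Dhcr7, a gene of cholesterol synthesis, each at r = 0.991. For Serpinb9 they were Ftsjd2, Rpp21 and Ttc35, with r between 0.974 and 0.985. Their ranges were 24.9 to 40.5, 34.5 to 51.0 and 16.9 to 23.7 FPKM, against 1.09 to 10.3 FPKM for Serpinb9.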

How the data were processed

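The authors aligned 50-bp reads to mm9 with TopHat, used unique reads only and computed FPKM per gene with Cufflinks, per the labels' protocols. Tool versions and gene models were not given in the sources used here. Values are FPKM, with bounds, per the file headers. Peaks came from MACS 1.4.0beta per the file headers (8992019 ChIP and 9999999 input tags, p-value cutoff 1e-05), with the deposited tag count, the score (10 times −log10 of the p-value), the fold enrichment ratio and the FDR in percent made by the authors. Positions are 1-based.

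The iTreg genotypes were fitted by limma 3.58.1 (R 4.3.3, trend, two-sided) on log2(FPKM + 0.5), over 11473 loci with a mean of at least 0.5 FPKM, with Benjamini-Hochberg adjustment and a threshold of 0.05. The naive, Th1, Th2 and Th17 libraries did not enter it. The fit was tested on simulated data. Implied reads assume that the deposited bounds lie 2 Poisson SD from the FPKM, which covers counting error only. Exon words and peak windows were read from the NCBIM37 (mm9) genome with GENCODE vM1. The members and lists were chosen with earlier results of these data known. Named genes are the 8 members, Bach2, Foxp3, up to 6 called genes of each list by smallest adjusted p, and the 3 loci most correlated with Serpina3g, Serpinb6b and Serpinb9. Alternatives changed the pseudocount, filter, scaling, replicate block, left-out library, peak window, FDR and motif window.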

Additional observations from a re-analysis of the deposited data

How the results depend on the processing

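Of the 8 members, 7 kept the direction of their difference in all 12 alternatives of the fit; Serpinb6a turned to −0.028 under quantile normalization and −0.16 with equal sums of FPKM over loci of at least 300 bp. The Serpina3 differences depend on the pseudocount because WT levels are near 0: Serpina3f was 6.75 with a pseudocount of 0.1 and 4.27 with 1, and Serpina3i 3.88 and 1.34. The rescalings move the median of all loci from 0.071 to −0.094 (quantile) and −0.186 (equal sums), and the calls over all loci from 4709 higher and 3857 lower to 3715 and 4890, and to 3265 and 5434. With no filter 6 other serpins were higher and 3 lower, beside 5165 and 4363 of all loci. Under both rescalings 1 cathepsin was higher and 5 were lower. Within 100 kb, 1 neighbour was higher. Serpina3n fell below the filter with equal sums and without any 1 Bach2KO library. At an FDR of at most 1%, 5 peaks remained near the members. Within 50 bp of the summit 2 of the 8 peaks held TGAGTCA, beside 30.2% of all peaks.

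Leaving out 1 library, between 7 and 8 members stood apart (8 without WT replicate 3). Groups stand apart more easily with fewer libraries, and the share of all loci was not counted at these settings. The members were also chosen on this difference, so nothing is read from that count. Over all loci, between 4245 and 4703 were higher and between 3476 and 3941 lower. With the replicate number as a block 4346 loci were higher and 3540 lower, and no call of a named list gene was lost. Deviations of same-numbered libraries correlated at −0.038, −0.0382 and 0.006, so no shared deviation was seen. This cannot show whether the numbers pair mice or wells. Depth limits Serpina3h and Serpina3i in WT, at 5 implied reads or fewer.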

Other observations

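Some other serpins had their highest level in a helper culture, given here as values of single libraries without a test. Of the 55 other serpin loci, 9 reached 1 FPKM in at least 1 library, and those named here were chosen after their values were seen. Serpinf1 stood at 34.9 FPKM in Th1, 33.6 in Th2 and 28.9 in Th17, and at most 0.655 FPKM in any iTreg library of either genotype. Serpinb5, the maspin gene, was at 8.54 FPKM in Th1 and at most 0.305 FPKM in every other library. Serpine2 was highest in Th17, at 10.4 FPKM.

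Serpinb1b and Serpinb1c, paralogs of Serpinb1a in the same cluster, were also highest in the Th17 library, at 2.49 and 3.19 FPKM against at most 0.182 FPKM elsewhere. Of the exon words of Serpinb1a, 44 and 40 of 1580 also occur in Serpinb1c and Serpinb1b. Reads from words with exact copies are not unique, and misassigned reads with mismatches were not tested.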
